A study of Homo sapiens with 8 samples.

Results

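TGF-β-treated SOX4-knockdown cells were compared with untreated control cells to read the net outcome of both changes together, that is, which transcripts ended above, near or below the control level. The comparison used 4 of the 8 libraries of the series and 5414 genes, out of 12012 genes that reached 1 FPKM (a read count relative to transcript length and sequencing depth) in at least 2 libraries. The cells were HMLE, an immortalized line derived from human mammary epithelium. Control cells carried the scrambled shRNA SHC002 and received no TGF-β, and the cells set against them carried the SOX4 shRNA TRCN0000018213 and received TGF-β for 16 h. All cells had been transduced with lentivirus and selected with puromycin. The other 4 libraries, untreated SOX4-shRNA cells and TGF-β-treated scrambled-shRNA cells, gave the separate steps. Each group had 2 libraries, and the labels do not say that these came from separate cultures. The p-values cover only the spread between libraries within the 4 groups, with information shared among genes. That spread may be technical. With 1 SOX4 shRNA, loss of SOX4 and other effects of that hairpin cannot be told apart, and the net comparison alone does not separate the hairpin from TGF-β.

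TGF-β binds a pair of receptor kinases that phosphorylate SMAD proteins, which enter the nucleus with SMAD4 and regulate target genes together with other factors such as AP-1. In mammary epithelial cells the cytokine slows the cell cycle and induces epithelial-mesenchymal transition, in which junctions loosen and matrix and mesenchymal genes are expressed. SOX4 is a transcription factor of the SoxC family that is itself induced by TGF-β in such cells.

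The libraries corresponded to a scale of 12.6 M to 16.8 M reads, of which 4.25 M to 5.67 M fell in the genes tested, with medians of 350 to 465 reads per gene. The median difference of log2(FPKM + 1) between the libraries of a group was 0.143 without and 0.098 with TGF-β for the scrambled shRNA, and 0.217 and 0.224 for the SOX4 shRNA. The fit shares 1 spread among the 4 groups. Many values had lost their decimal mark, and the marks were restored partly by agreement within a group, which can lower this spread. Of the epithelial markers measured, EPCAM, CDH1, KRT5, KRT14 and GRHL2 were all expressed, with summed levels of 5517 to 6209 FPKM in the 4 libraries compared. That sum was carried mainly by KRT5 and KRT14, whose net log2 changes went opposite ways (-0.34, not called, and 0.53). KRT17, KRT18 and TP63 had no settled value. No endothelial, immune, adipocyte or muscle marker with a settled value reached 1 FPKM, and CDH5 and CD3E were listed at 0 in all 4. Of 7 fibroblast markers with settled values, LUM and PDGFRA stayed at or below 0.0827 FPKM. The summed level of the 7 was 149 to 165 FPKM in control and 87.4 to 109 FPKM in TGF-β-treated SOX4-shRNA cells, carried mainly by COL1A1 and THY1. In bulk RNA, fewer cells of a type and less RNA per cell cannot be told apart.

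SOX4 stayed below the control level. It measured 8.74 and 8.04 FPKM in the control libraries, 0.923 and 1.02 FPKM on knockdown alone, 18.7 and 17.6 FPKM with TGF-β alone and 2.37 and 1.88 FPKM with both. The libraries of the 2 groups compared do not overlap, which was so for 51.3% of all genes tested. The net log2 change was -1.59 ± 0.13 (SE, n = 2 libraries per group), with a limma adjusted p of 0.00054. TGF-β thus left the knockdown cells at 25.3% of the control level of SOX4. All log2 changes are on the scale of log2(FPKM + 1), which understates the change of genes at low levels.

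In all, 314 genes (5.8% of those tested) were higher and 245 (4.53%) lower than in control cells at a limma adjusted p under 0.05, or 559 (10.3%) in either direction. These are the genes called above and below control. The change was 1 or more on the log2 scale for 82 of the higher and 34 of the lower genes. Of the rest, 1931 genes (35.7%) had a 95% interval of the net change that lay within ±0.5 and are called near control, and 2924 (54%) were unresolved, that is, not called at the adjusted p and with an interval that reached beyond ±0.5. An unresolved gene can have an interval that excludes 0: the unadjusted p was under 0.05 for 1450 genes. The median net change over all genes was -0.04, and the median SE was 0.15. Counts of calls depended on single libraries. They were 99 and 57 without untreated control replicate 1 and 100 and 61 without replicate 2. Without TGF-β-treated scrambled replicates 1 and 2 they were 187 and 127, and 186 and 127. Without TGF-β-treated SOX4-shRNA replicates 1 and 2 they were 198 and 145, and 198 and 146.

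The largest rise was that of MMP9, a gelatin-degrading metalloprotease. It measured 4.47 and 4.19 FPKM in control cells and 25.9 and 38.9 FPKM in TGF-β-treated knockdown cells. Knockdown alone gave 3.61 and 2.05 FPKM and TGF-β alone 20.9 and 21.5 FPKM. The groups compared do not overlap, as for 51.3% of all genes tested. The net change of 2.62 ± 0.23 (adjusted p = 0.00071) was a 7.49-fold difference of the mean FPKM. TGFBI, which encodes an adhesive protein of the extracellular matrix, went from 179 and 195 FPKM to 1023 and 1112 FPKM. Its net change was 2.50 ± 0.10 (adjusted p = 1.2e-05). With the scrambled shRNA and TGF-β, TGFBI stood at 999 and 1009 FPKM, while the untreated knockdown cells measured 82.2 FPKM in both libraries. The difference between the shRNAs with TGF-β was 0.09 ± 0.10 (95% interval -0.13 to 0.31, adjusted p = 0.74). Tenascin C, TNC, a matricellular protein of remodelled tissue, measured 17.4 and 20.4 FPKM in control and 66.2 and 73 FPKM in TGF-β-treated knockdown cells, a change of 1.83 ± 0.12 (adjusted p = 0.00027). With TGF-β alone it measured 37.8 and 40.1 FPKM, and the shRNAs differed in the presence of TGF-β by 0.82 ± 0.12 (adjusted p = 0.0096).

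The other 9 of the 12 largest rises lay between 1.69 and 1.87 on the log2 scale. They were KCTD11, the adrenomedullin-family peptide gene ADM2, the prostaglandin transporter SLCO2A1, the cytokine CSF2, the long noncoding RNA UCA1, the ubiquitin ligase NEURL1B, the chemokine scavenging receptor ACKR3, the chloride channel family gene CLIC3 and the cytokine IL1A. CLIC3 varied most, from 21.7 to 33.6 FPKM in the treated knockdown cells and from 9.17 to 6.35 FPKM in control, and its call (adjusted p = 0.034) was lost when any 1 library of the untreated control or of either TGF-β-treated group was left out. UCA1 measured 11.3 and 10.4 FPKM in control and 38 and 41.8 FPKM in treated knockdown cells. MMP9, TGFBI, TNC and the rest except CLIC3 kept their call in all alternatives run.

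**Figure D1:**
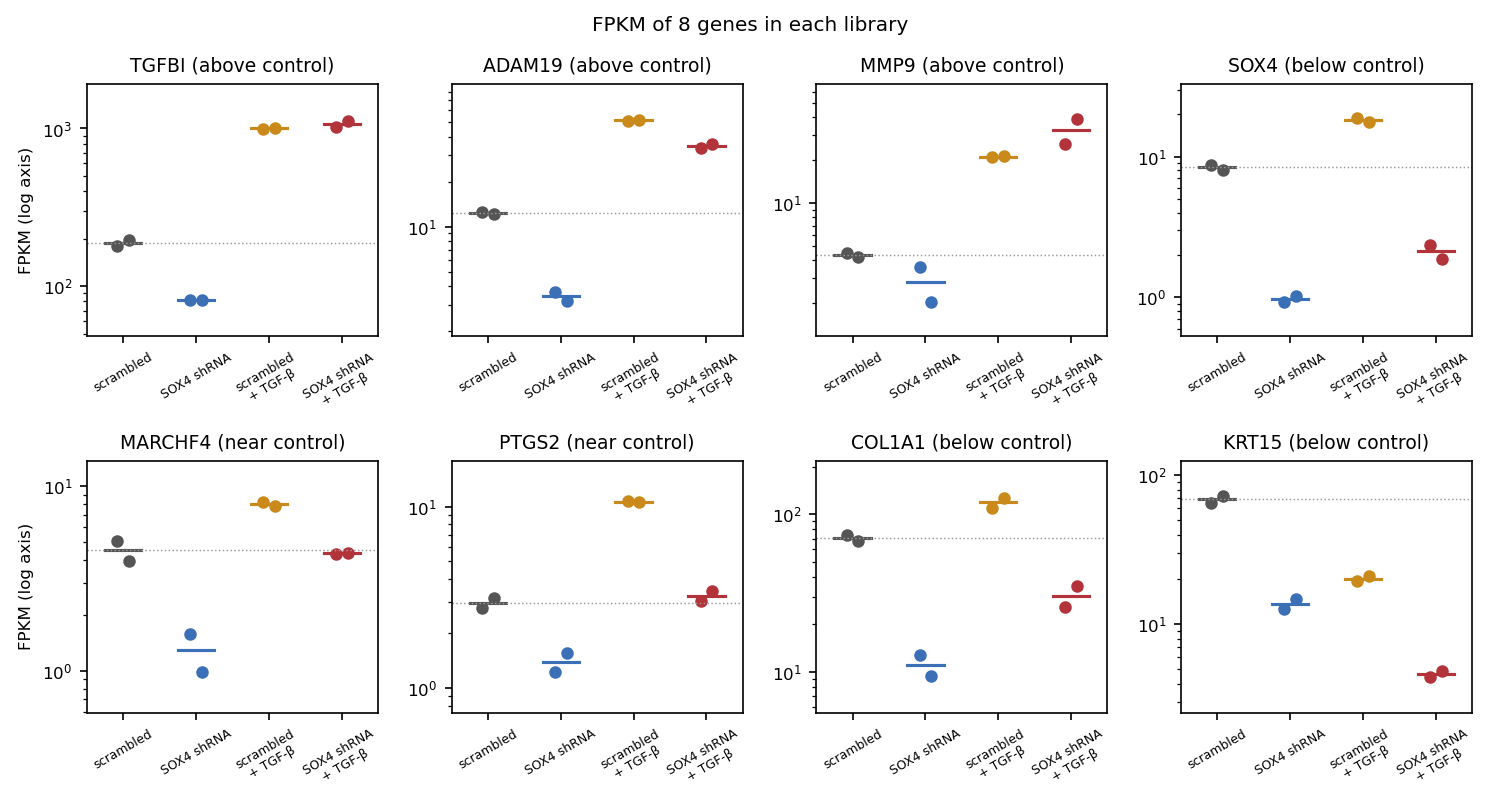
FPKM (log axes that differ between panels) of 8 genes in each library (points, 2 per group), with the group mean (short lines) and the mean of untreated control cells (dotted). TGFBI, ADAM19 and MMP9 lie above control in both TGF-β-treated SOX4-shRNA libraries, MARCHF4 and PTGS2 lie near control, and SOX4, COL1A1 and KRT15 lie below it.

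The largest fall was that of KRT15, a keratin of basal and progenitor-like epithelial cells. It measured 65.4 and 72.2 FPKM in control and 4.41 and 4.87 FPKM in TGF-β-treated knockdown cells, or 6.74% of the control mean. Knockdown alone gave 12.6 and 14.7 FPKM and TGF-β alone 19.4 and 21.2 FPKM, so KRT15 fell with each change. The net change was -3.63 ± 0.12 (adjusted p = 1.1e-05). ADAMTS1, a secreted protease that cleaves proteoglycans, showed another pattern. It measured 5.66 and 6.11 FPKM in control, 0.906 and 0.826 FPKM on knockdown alone, and 12.1 and 11.2 FPKM with TGF-β alone. With both it stayed at 0.836 and 0.86 FPKM, and the change with TGF-β was 0.88 with the scrambled shRNA (adjusted p = 0.006). In knockdown cells the change with TGF-β was -0.01 ± 0.12 (adjusted p = 0.96). The difference between these changes was not tested. Its net change was -1.90 ± 0.12 (adjusted p = 0.00027). The collagen VI chain COL6A1 (-1.85 ± 0.18, adjusted p = 0.0012) stood at 3.06 and 4.03 FPKM with both changes, against 16.6 and 14.1 FPKM in control and 3.79 and 2.79 FPKM on knockdown alone. Unlike ADAMTS1, it was not called both higher with TGF-β in scrambled-shRNA cells and lower on knockdown with TGF-β.

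Besides SOX4, the others of the 12 largest falls were CADM3-AS1, IFITM2, QDPR, CHMP7, SPRR1B, PLA2G4A, H2BC12 and PSKH1, between -1.73 and -1.32. SPRR1B, a cornified envelope precursor, measured 94.4 and 77.7 FPKM in control and 34.9 and 30.2 FPKM with both changes. QDPR, an enzyme that regenerates tetrahydrobiopterin, went from 24.7 and 24.1 FPKM to 7.74 and 7.86 FPKM. PLA2G4A, the cytosolic phospholipase that releases arachidonic acid, went from 5.73 and 6.83 FPKM to 2.02 and 1.69 FPKM. None of these 12 calls was lost in any alternative run. IFITM2, H2BC12 and SPRR1B have near-identical family members among which the authors' counting could split reads, and are uncertain for that reason.

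**Figure D2:**
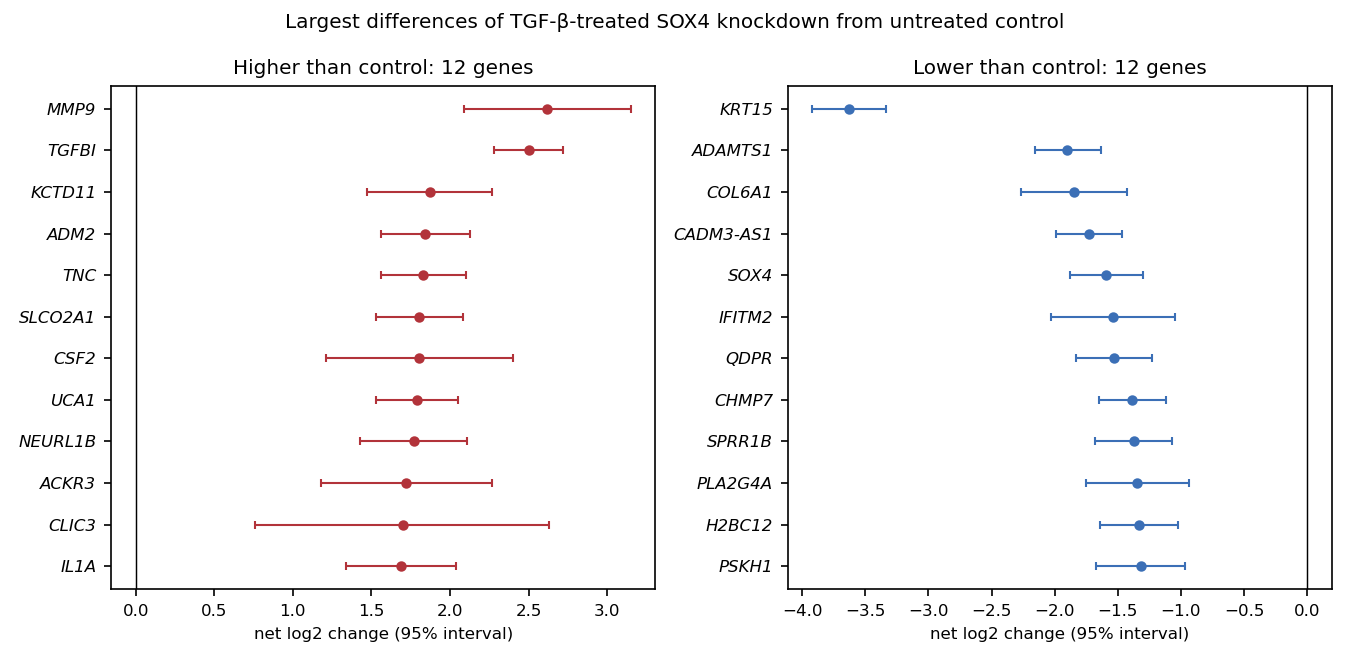
Net log2 change with its 95% interval (bars) for the 12 genes with the largest rise and the 12 with the largest fall among called genes whose libraries do not overlap. All 559 called genes met this condition. KRT15 at -3.63 lies far below the next gene, ADAMTS1 at -1.90, and the rises run from 2.62 for MMP9 to 1.69 for IL1A.

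Where the separate steps opposed each other, the net outcome was read gene by gene. In untreated cells 186 genes (3.44%) were lower on knockdown, of 4.47% called in either direction. In SOX4-shRNA cells 329 genes (6.08%) were higher with TGF-β, of 8.33% called in either direction. Both calls were made for 77 genes, which share the untreated SOX4-shRNA libraries as the low point of both steps. Relative to control, 17 of these ended above, 27 near, 13 below, and 20 were unresolved. Over all genes tested the shares were 5.8% above, 35.7% near, 4.53% below and 54% unresolved, so the share near control was close to that of all genes and is no result about these 77. The groups of genes differed in size of change. The median fall on knockdown and rise with TGF-β were -0.93 and 1.73 in genes that ended above, -0.80 and 0.81 in those near, and -1.62 and 0.69 in those below. The net change is the sum of both steps in the same fit, so these medians describe the classes and test nothing. Without 1 library, the genes counted above ranged from 5 to 12, near from 2 to 18 and below from 5 to 11. With 0.8 in place of 0.5 as the bound, 44 genes were near control. With each step and the net change fitted only on the 4 libraries it compared, the counts above, near and below were 7, 6 and 4.

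**Figure D3:**
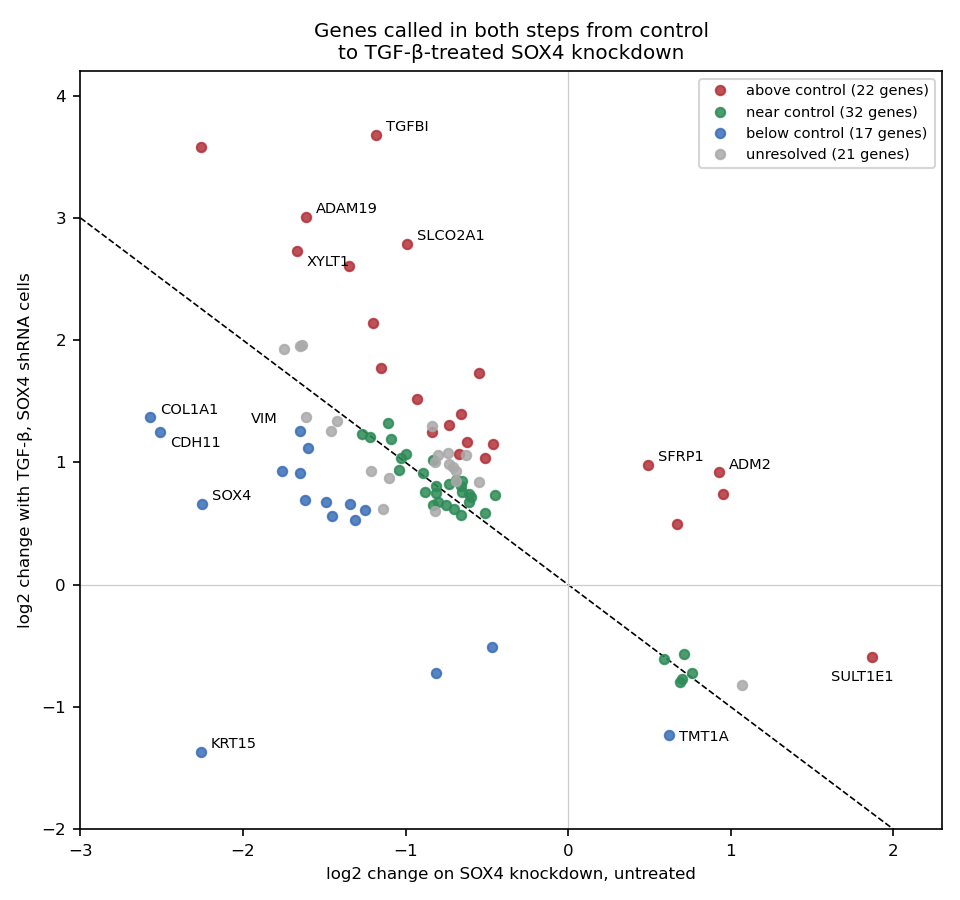
Log2 change on SOX4 knockdown in untreated cells (horizontal) and log2 change with TGF-β in SOX4-shRNA cells (vertical) for the genes called in both steps, one point per gene. On the dashed line both changes cancel, and points are coloured by the call against control. Genes above control such as ADAM19 and TGFBI lie above the line, COL1A1, CDH11 and SOX4 lie below it, and KRT15 is the lowest of the genes that fell in both steps.

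Among the genes that ended above control was ADAM19, a metalloprotease that sheds membrane proteins. Its libraries measured 12.6 and 12.2 FPKM in control, 3.65 and 3.18 FPKM on knockdown, 51 and 51.8 FPKM with TGF-β and 33.4 and 35.6 FPKM with both, a net change of 1.40 ± 0.11 (adjusted p = 0.00054). XYLT1, which starts the sugar chains of proteoglycans, went from 4.84 and 5.04 FPKM to 10.9 and 11.9 FPKM (1.06 ± 0.11), and the cholesterol exporter ABCA1 from 5.15 and 6.16 FPKM to 12.1 and 11.3 FPKM (0.94 ± 0.12). SLCO2A1 (1.80 ± 0.12) ended at 14.4 and 15.8 FPKM, where TGF-β alone gave 16 and 16.2 FPKM. The net changes of this class went down to 0.40, and its other genes included MMP14, which activates other metalloproteases (0.74), and the GTPase gene RHOB (0.62). The calls of RHOB, CST6 and FERMT1 were lost when any 1 of the untreated control libraries, the TGF-β-treated scrambled libraries or TGF-β-treated SOX4-shRNA replicate 2 was left out, and that of FERMT1 also without TGF-β-treated SOX4-shRNA replicate 1.

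Among the genes near control, MARCHF4, a membrane-bound ubiquitin ligase, measured 5.02 and 3.95 FPKM in control, 1.59 and 0.986 FPKM on knockdown, and 4.31 and 4.33 FPKM with both changes. Its net change was -0.04 ± 0.16 (95% interval -0.41 to 0.33). PTGS2, the inducible cyclooxygenase, measured 2.76 and 3.12 FPKM in control, 1.22 and 1.55 FPKM on knockdown, and 3.02 and 3.41 FPKM with both. With TGF-β alone PTGS2 stood at 10.7 and 10.6 FPKM, and the difference between the shRNAs with TGF-β was -1.47 ± 0.13 (adjusted p = 0.001). The keratin KRT16 (0.06 ± 0.14) and involucrin IVL (0.10 ± 0.16), both made by stressed or differentiating squamous cells, overlapped with control. KRT16 measured 83.8 and 71.4 FPKM in control, 42.5 and 34.1 FPKM on knockdown and 76.3 and 85.7 FPKM with both. COL7A1, the anchoring fibril collagen, had uneven libraries, at 64.9 and 99.7 FPKM against 87.1 and 72.1 FPKM in control. The lymphangiogenic factor VEGFC (0.20 ± 0.10) was also in this class. RFTN1 (9.07 and 8.29 FPKM, against 7.19 and 7.52 FPKM) did not overlap with control, yet its interval lay within ±0.5.

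Among the genes that stayed below control, COL1A1, the main chain of type I collagen, measured 73.7 and 67.2 FPKM in control, 12.8 and 9.42 FPKM on knockdown and 25.9 and 34.8 FPKM with both changes, a net change of -1.20 ± 0.18 (adjusted p = 0.0067). TGF-β alone gave 110 and 127 FPKM. Its partner chain COL1A2 went from 8.47 and 8.48 FPKM to 3.79 and 4.2 FPKM (-0.92 ± 0.11, adjusted p = 0.0031). CDH11, a cadherin of mesenchymal cells, measured 15.4 and 17.2 FPKM in control, 1.98 and 2.1 FPKM on knockdown, and 6.31 and 6.12 FPKM with both (-1.26 ± 0.11, adjusted p = 0.00068). In each of these the treated knockdown cells lay between untreated knockdown and control cells. VIM, the intermediate filament of mesenchymal cells, came nearest to control, at 351 and 320 FPKM against 440 and 440 FPKM (-0.39 ± 0.09, adjusted p = 0.034). Its call was lost when any 1 of the untreated control libraries, the TGF-β-treated scrambled libraries or TGF-β-treated SOX4-shRNA replicate 2 was left out. COL3A1, SPOCK1, GJB2, KRT6B, CALML3, CYP27C1, GPX3 and HTRA1 lay between -0.89 and -0.48. COL3A1, SPOCK1, KRT6B, CALML3 and GJB2 lost their call when either untreated control library was left out. COL3A1 and CALML3 also lost it if TGF-β-treated SOX4-shRNA replicate 1 was left out, and GJB2 without either TGF-β-treated scrambled library or TGF-β-treated SOX4-shRNA replicate 2. CYP27C1 lost it without control replicate 2 (limma adjusted p = 0.062) and COL1A1 without control replicate 1 (limma adjusted p = 0.056).

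Of the 20 unresolved genes, N-cadherin CDH2 measured 8.4 and 8.54 FPKM in control, 1.76 and 2.27 FPKM on knockdown, and 11.1 and 10.2 FPKM with both changes. Its net change was 0.30 ± 0.12 (adjusted p = 0.18). The long noncoding RNA MANCR (0.18 ± 0.15), the glycolytic regulator PFKFB4 (-0.24 ± 0.18) and the ligand gene WNT9A (0.32 ± 0.25) had intervals that left them unplaced.

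**Figure D4:**
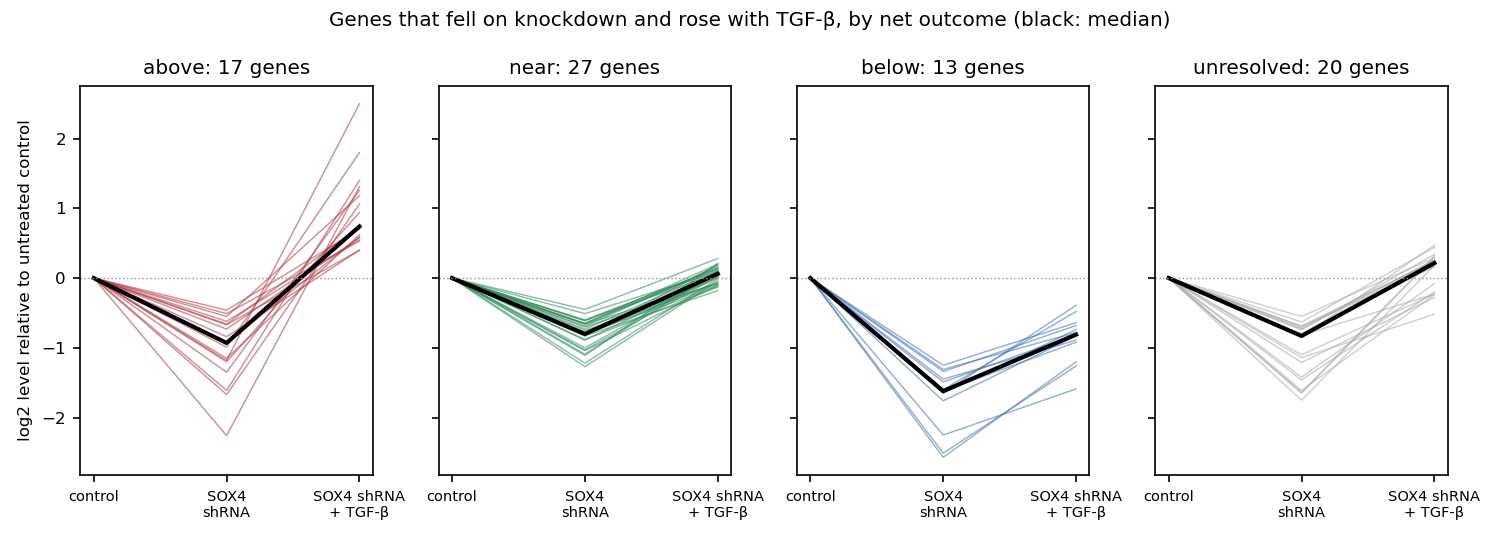
Log2 level relative to untreated control at each step for the 77 genes that fell on knockdown and rose with TGF-β in SOX4-shRNA cells, one thin line per gene and the median in black, split by net outcome. The median dips to -0.93 and ends at 0.74 in the 17 genes above control, and dips to -1.62 and ends at -0.81 in the 13 below.

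Promoter sequences are shown for the gene of each class that has an entry in the RefSeq promoter table and the largest value of the smaller step, so that a reader can see what stands before their starts. They cover the 250 bases before the start, 5′ to 3′ (GRCh38.p14), with capitals marking CAGAC or its reverse complement GTCTG, the box bound by SMAD proteins. The window of XYLT1 (above control) is chr16:17470961-17471210 on the minus strand, that of MARCHF4 (near) chr2:216372484-216372733 on the minus strand, and that of VIM (below) chr10:17227991-17228240 on the plus strand.
XYLT1: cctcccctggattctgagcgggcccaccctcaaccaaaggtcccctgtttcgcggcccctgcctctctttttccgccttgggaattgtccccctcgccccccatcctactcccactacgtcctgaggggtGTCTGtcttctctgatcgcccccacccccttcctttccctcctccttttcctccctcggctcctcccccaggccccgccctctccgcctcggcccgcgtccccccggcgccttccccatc
MARCHF4: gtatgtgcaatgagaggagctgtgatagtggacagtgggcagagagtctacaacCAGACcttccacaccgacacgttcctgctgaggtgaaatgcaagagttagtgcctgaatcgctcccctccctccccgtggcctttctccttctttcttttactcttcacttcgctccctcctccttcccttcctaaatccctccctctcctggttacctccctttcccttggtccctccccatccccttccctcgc
VIM: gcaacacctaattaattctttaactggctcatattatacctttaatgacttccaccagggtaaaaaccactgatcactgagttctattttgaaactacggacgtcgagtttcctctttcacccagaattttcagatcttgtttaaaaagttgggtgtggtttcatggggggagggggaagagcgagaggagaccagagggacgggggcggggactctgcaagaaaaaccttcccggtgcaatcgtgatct
XYLT1 and MARCHF4 hold 1 such box each and VIM holds 0. None of the 3 windows holds the AP-1 site TGANTCA or the SOX site ACAAAG on either strand. Of the 77 genes, 54 had entries, with 62 promoters in all. The SMAD box was in 2 of 15 promoters of genes above control, 10 of 24 near, 4 of 8 below and 9 of 15 unresolved, against 38% of all 35116 promoters of that length in the table. In the same order, the AP-1 site was in 0, 2, 0 and 5 of these promoters and in 6.57% of all. The SOX site was in 1, 1, 1 and 0 and in 13.7% of all. No motif searched contains another. A match is a description and not a site.

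Fewer genes opposed in the other direction. In untreated cells 56 genes (1.03%) were higher on knockdown, and with TGF-β 122 (2.25%) were lower in SOX4-shRNA cells, and 8 genes had both calls. Of these, 5 ended near control, against 35.7% of all genes tested, and so few genes allow no statement about the share. They were ALPP, F2R, GRAMD2A, MTMR4 and periplakin PPL. PPL, a desmosome-linked protein, measured 23.6 and 21.9 FPKM in control, 39.4 and 35.1 FPKM on knockdown and 20.5 and 21.5 FPKM with both. The estrogen sulfotransferase SULT1E1 ended above control, at 6.26 and 5.18 FPKM against 1.74 and 1.81 FPKM (1.27 ± 0.14, adjusted p = 0.002), and TMT1A below (-0.61 ± 0.13, adjusted p = 0.022). The last call was lost when any 1 library of the untreated control or of either TGF-β-treated group was left out. SERPINB13 was unresolved.

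Read from the other path, TGF-β first and knockdown in its presence, 269 genes (4.97%) were higher with TGF-β in scrambled-shRNA cells and 153 (2.83%) lower on knockdown with TGF-β. In either direction these steps called 7.2% and 3.88% of genes, with 2.23% lower in the first and 1.05% higher in the second. Of the 57 with both calls, 7 ended above control, 19 near, 14 below and 17 unresolved. The share near control was again close to the 35.7% of all genes. Some of these genes are also among the 77, and the net change of both sets comes from the same libraries. Genes that ended below included ADAMTS1, fibrillin-1 FBN1 (-1.04 ± 0.13, adjusted p = 0.0029), the hyaluronan synthase HAS2 (-0.65 ± 0.15, adjusted p = 0.031) and the microtubule-binding MAP1B (-0.82 ± 0.14, adjusted p = 0.012). FBN1, a scaffold of elastic fibres, measured 3.84 and 4.6 FPKM in control, 7.19 and 7.33 FPKM with TGF-β alone and 1.44 and 1.61 FPKM with both. HAS2 was at low levels, 0.698 and 0.928 FPKM in control and 0.0698 and 0.236 FPKM with both, and its call was lost when any 1 library of the untreated control or of either TGF-β-treated group was left out. MAP1B lost its call without control replicate 2 or TGF-β-treated SOX4-shRNA replicate 2. Those near control included TNFAIP6, CXCR1, STC1 and AEBP1, and SEC24D, which carries secretory cargo, ended above control (0.61 ± 0.10, adjusted p = 0.01), a call lost when either untreated control library was left out.

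In 7 genes both steps went the same way, and all 7 were called against control. The net change is the sum of both steps in the same fit. These calls therefore follow from how the 7 genes were chosen and are no separate result. ADM2 measured 0.793 and 0.848 FPKM in control, 2.68 and 2.25 FPKM on knockdown, 3.28 and 3.15 FPKM with TGF-β and 5.81 and 5.28 FPKM with both (1.84 ± 0.12, adjusted p = 0.00027). The inflammatory cytokine IL1A went from 20.5 and 27.6 FPKM to 81.9 and 76.1 FPKM (1.69 ± 0.15, adjusted p = 0.00084). SFRP1, a secreted inhibitor of WNT ligands, went from 21.9 and 22.1 FPKM to 65.4 and 60.3 FPKM (1.47 ± 0.10, adjusted p = 0.00027), and TSPAN2 from 1.09 and 0.868 FPKM to 3.56 and 3.35 FPKM. The genes that fell in both steps were KRT15, QDPR and POLR3K, a subunit of RNA polymerase III, which went from 34.9 and 35.4 FPKM to 16.8 and 17.6 FPKM (-0.99 ± 0.10, adjusted p = 0.0015).

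Genes of pathway lists were then counted, each list by its members fitted. The counts of every list are to be read beside the shares of all genes tested, 5.8% above and 4.53% below. No list was tested against these shares. Called members beyond the 4 with the lowest p were named after their values were seen. Of the TGF-β and SMAD target genes, 11 of 14 fitted members were above control and 0 below, with a median net change of 0.93 against -0.04 over all genes, and 5.8% and 4.53% of all genes were called in these directions. They included TGFBI, ADAM19, LTBP2, BHLHE40, INHBA, ITGA5, CCN2, CCN1, FSTL3 and LOXL2. LTBP2, a binding partner of elastic fibres, measured 7.24 and 6.96 FPKM in control and 21.9 and 24.3 FPKM with both changes (1.57 ± 0.12), above the 14.2 and 13.7 FPKM of TGF-β alone. INHBA, a chain of activin, measured 28.3 and 26.8 FPKM in control and 54.5 and 53.3 FPKM with both (0.94 ± 0.10). CCN2, a matricellular growth factor, measured 22.4 and 20.8 FPKM and 38.7 and 39.1 FPKM (0.82 ± 0.11). The other 3 members, WNT7B, JUNB and COL7A1, were not called. With 1 library left out, 8 to 11 of the list were called, and LOXL2 lost its call when any 1 library of the untreated control or of either TGF-β-treated group was left out. Of the feedback inhibitors, SMURF2, a ubiquitin ligase for TGF-β receptors, was above control (0.86 ± 0.13, adjusted p = 0.0072), while BAMBI (0.62 ± 0.17) and NOG (0.76 ± 0.22) were not called (limma adjusted p = 0.054 and 0.064). BAMBI was called under median of ratios scaling and without an intensity trend, and NOG when only the libraries compared were fitted. The call of SMURF2 was lost when either untreated control library was left out. Among ligands and latency proteins, LTBP2 and INHBA were the 2 of 4 fitted that were called. GDF15 (-0.86 ± 0.23, limma adjusted p = 0.052) and TGFB1 (0.28 ± 0.26) were not called. GDF15 was called lower in some alternatives, such as upper quartile scaling or a fit of only the libraries compared.

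Of 8 fitted interstitial collagens, 5 were below control and 0 above, namely COL6A1, COL1A1, COL1A2, COL3A1 and COL5A3, with a median of -0.76. COL22A1 (0.36 ± 0.13), COL16A1 (0.30) and COL5A2 (-0.25) were not called. Of 9 basement membrane genes the type IV collagen chains COL4A1 (1.15 ± 0.10, adjusted p = 0.00061) and COL4A2 (0.80 ± 0.14, adjusted p = 0.01) were above, and the nidogens NID2 (-0.93 ± 0.14, adjusted p = 0.0064) and NID1 (-0.90 ± 0.15, adjusted p = 0.011) below. COL4A1 went from 64.1 and 67.4 FPKM to 149 and 145 FPKM, and TGF-β alone gave 132 and 129 FPKM. NID1, which links laminin to type IV collagen, went from 1.68 and 1.11 FPKM to 0.315 and 0.244 FPKM, and stood at 1.22 and 1.15 FPKM with TGF-β alone. Of 5 elastic fibre genes, FBN1, FBLN5 and FBN2 were below and LOXL2 above. Of 10 proteoglycan and matricellular genes, TNC, XYLT1, CCN2, CCN1 and SDC4 were above and SPOCK1, BGN and HAS2 below. Matrix proteases and their inhibitors had 5 of 11 above (MMP9, ADAM19, TIMP3, MMP14 and TIMP2) and 1 below (ADAMTS1). The calls of COL4A2 and SPOCK1 were lost when either untreated control library was left out and those of NID1 and NID2 without control replicate 1. NID1 also lost its call if TGF-β-treated SOX4-shRNA replicate 2 was left out, and FBN2 without control replicate 2, either TGF-β-treated scrambled library or TGF-β-treated SOX4-shRNA replicate 1. With 1 library left out, 2 to 5 collagens were called lower. The fibroblast markers, which share COL1A1, COL1A2, COL3A1 and TWIST1 with other lists, were below in 4 of 6 fitted members, and their part in the result was not tested.

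Mesenchymal markers had 3 of 9 above (TNC, MMP9 and MMP14) and 3 below (CDH11, FBN1 and VIM), with a median of 0.25. Among transcription factors of the transition, SNAI2, which represses epithelial genes, measured 90.3 FPKM in both control libraries, 77.2 and 83.1 FPKM on knockdown, 172 and 163 FPKM with TGF-β and 175 and 168 FPKM with both (0.92 ± 0.10, adjusted p = 0.0018). TWIST1 was lower, at 2.64 and 2.52 FPKM against 5.62 and 5.14 FPKM (-0.83 ± 0.13, adjusted p = 0.0072), a call lost without control replicate 1. FOXC1 (-0.08 ± 0.12) was near control. Epithelial junction genes had 2 of 14 above, against 5.8% of all genes tested, and 0 below. They were the claudin CLDN4 (1.08 ± 0.22, adjusted p = 0.019) and cingulin CGN (0.46 ± 0.10, adjusted p = 0.03). Both calls were lost when either untreated control library was left out, that of CLDN4 also if TGF-β-treated SOX4-shRNA replicate 2 was left out, and that of CGN without any 1 TGF-β-treated library. E-cadherin CDH1 was near control, at 95.4 and 85.7 FPKM against 74.1 and 77.8 FPKM (0.25 ± 0.10, adjusted p = 0.16). Among basal markers KRT15, KRT6B and S100A2 were below and KRT14 above (0.53 ± 0.12, adjusted p = 0.028), while KRT5 was not called (-0.34 ± 0.10, adjusted p = 0.062) but was called when either untreated SOX4-shRNA library was left out. KRT14 went from 2106 and 1868 FPKM to 2837 and 2875 FPKM, and its call was lost when any 1 library of the untreated control or of either TGF-β-treated group was left out. That of S100A2 was lost without control replicate 1 or TGF-β-treated SOX4-shRNA replicate 1.

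**Figure D5:**
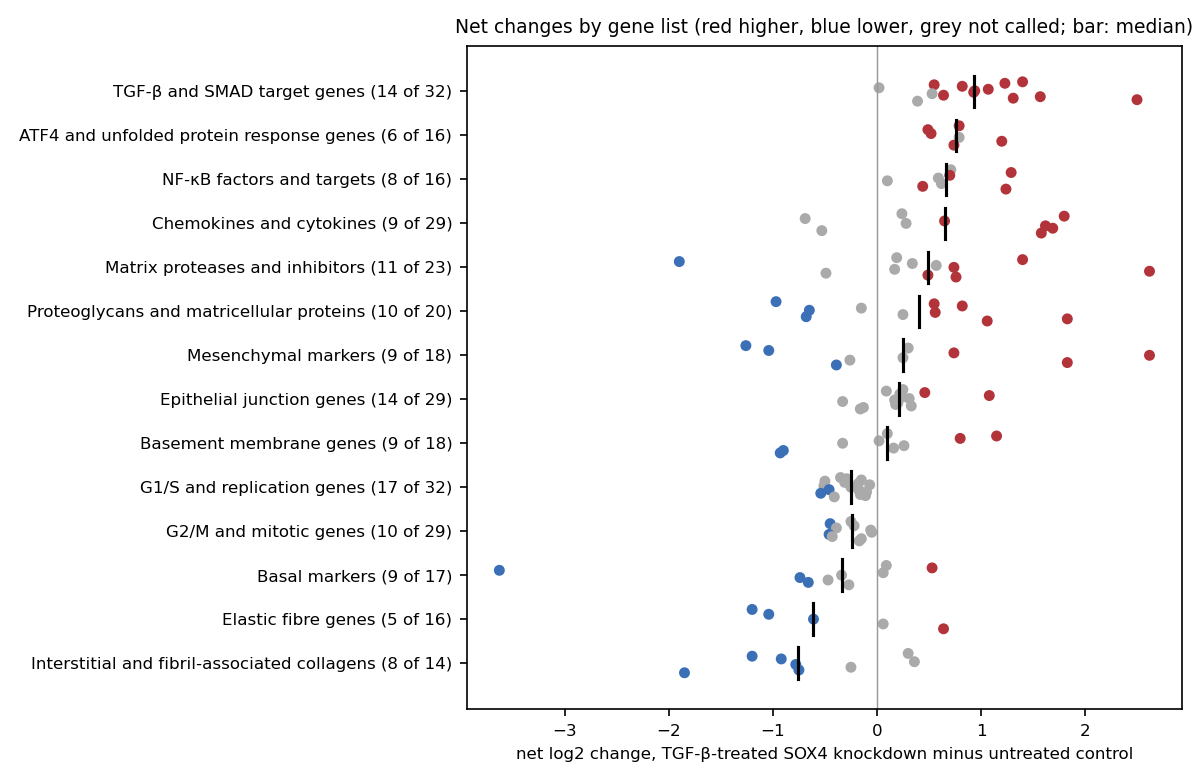
Net log2 change of the fitted members of 14 gene lists, one point per gene (red above control, blue below, grey not called), with the list median as a bar and, in brackets, fitted of all members. TGF-β and SMAD targets have a median of 0.93, and interstitial collagens a median of -0.76.

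Of 9 chemokines and cytokines, 5 were above (CXCL8, IL1A, CSF2, IL6 and CXCL2) and 0 below, with a median of 0.65. The others were not called and went both ways. CX3CL1 (-0.69 ± 0.18, limma adjusted p = 0.05) and IL1B (-0.53 ± 0.16, limma adjusted p = 0.074) had negative changes, and CXCL3 (0.28) and CCL28 (0.24) positive ones. The neutrophil chemokine CXCL8 measured 4.44 and 4.53 FPKM in control, 18.8 and 22.6 FPKM on knockdown, 6.98 and 7.99 FPKM with TGF-β and 16.5 and 15.4 FPKM with both (1.62 ± 0.13, adjusted p = 0.00054). CSF2, a growth factor of granulocytes and macrophages, measured 7.67 and 5.98 FPKM in control and 9.14 and 4.42 FPKM on knockdown, against 28.1 and 29.5 FPKM with TGF-β and 25.4 and 26.9 FPKM with both (1.80 ± 0.26, adjusted p = 0.0054). CXCL8 thus stood at its highest in the untreated knockdown cells and CSF2 in the TGF-β-treated cells. IL6 was at low levels, 0.182 and 0.807 FPKM in control and 3.57 and 3.16 FPKM with both (1.58 ± 0.25, adjusted p = 0.0076), and its call was lost without control replicate 1 (adjusted p = 0.052). Of 8 NF-κB factors and targets, ICAM1, TNFAIP2, NFKBIA and TLR2 were above and 0 below, with a median of 0.66. ICAM1, an adhesion receptor for leukocytes, went from 8.36 and 8.17 FPKM to 19.3 and 24.1 FPKM (1.29 ± 0.15, adjusted p = 0.0022). The call of TLR2 was lost when any 1 library was left out, that of NFKBIA when either untreated control library was left out and that of TNFAIP2 without control replicate 2, so that 1 to 4 genes of the list were called. Of 7 interferon response genes IRF1 (1.07 ± 0.12) and IRF9 (0.53 ± 0.11) were above and HERC5 (-0.80 ± 0.13) below. HERC5 lost its call without either untreated control library, and IRF9 when any 1 library of the untreated control or of either TGF-β-treated group was left out.

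Of 6 genes of the ATF4 and unfolded protein response, 5 were above (SESN2, SLC7A11, DNAJB9, PDIA4 and PHGDH), with a median of 0.76, and PDIA4 lost its call when any 1 library of the untreated control or of either TGF-β-treated group was left out. SESN2, which restrains mTORC1 under amino acid shortage, measured 6.57 and 5.12 FPKM in control and 13.7 and 15.7 FPKM with both changes (1.20 ± 0.16, adjusted p = 0.0046). With 1 library left out, 1 to 6 of this list were called. Of 9 immediate early factors, JUN (0.95 ± 0.14), KLF4 (0.79 ± 0.13) and FOSL2 (0.72 ± 0.17) were above, and 0 to 3 were called with 1 library left out. JUN and KLF4 lost their call without control replicate 2, and FOSL2 when any 1 library of the untreated control or of either TGF-β-treated group was left out. The NOTCH list had 6 fitted members with a median of -0.30. Its ligand JAG1 went from 31.1 and 31 FPKM to 56.8 and 57.1 FPKM (0.85 ± 0.10, adjusted p = 0.002). The target HES1 was above (0.80 ± 0.17, adjusted p = 0.025), a call lost without control replicate 2 or any 1 TGF-β-treated library. NOTCH3 (-0.60 ± 0.20), NRARP (-0.52 ± 0.14), NOTCH1 (-0.52 ± 0.21) and DLL1 (-0.09 ± 0.19) were not called. NOTCH3 and NRARP were called lower when either untreated SOX4-shRNA library was left out. In the WNT list, SFRP1, TCF7L1 and WNT7A were above, and the inhibitor DKK1 (-0.93 ± 0.10, adjusted p = 0.0018) and the receptor FZD8 below. Among 11 fitted genes reported as SOX4 targets, TNC, TEAD1 and SEMA3C were above and SOX4 itself, DKK1, FZD8 and FZD5 below. TEAD1, a partner of YAP, measured 24.7 and 26.2 FPKM in control and 41.6 and 37.9 FPKM with both (0.62 ± 0.11, adjusted p = 0.012), and SEMA3C, a secreted guidance cue, went from 50.2 and 60 FPKM to 99.9 and 84.6 FPKM (0.73 ± 0.15, adjusted p = 0.023). TCF7L1 lost its call without control replicate 2, and WNT7A without that library, without 1 of the scrambled libraries given TGF-β, or without TGF-β-treated SOX4-shRNA replicate 2. The calls of TEAD1, SEMA3C, SLC7A11 and DNAJB9 were lost when either untreated control library was left out. Those of SEMA3C, SLC7A11 and DNAJB9 were also lost if TGF-β-treated SOX4-shRNA replicate 1 was left out, and that of SEMA3C without either TGF-β-treated scrambled library.

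Of 17 fitted G1/S genes 2 were below control, against 4.53% of all genes tested, and the median was -0.25. They were the helicase subunit MCM6 (-0.54 ± 0.11, adjusted p = 0.017) and the replication factor GINS2 (-0.46 ± 0.10, adjusted p = 0.029). Of 10 G2/M genes KIF20A and CCNB1 were below, with a median of -0.24. These 4 calls were lost when any 1 library of the untreated control or the TGF-β-treated scrambled group, or TGF-β-treated SOX4-shRNA replicate 2, was left out. Neither list had a gene called above control. MCM6 measured 48.1 and 52.4 FPKM in control, 52.1 and 52.9 FPKM on knockdown, 37.5 and 38.1 FPKM with TGF-β and 35.9 and 32.6 FPKM with both. FGFBP1, which releases fibroblast growth factors from matrix, was lower at 258 and 260 FPKM against 413 and 492 FPKM (-0.80 ± 0.12, adjusted p = 0.0054), as with TGF-β alone (249 and 252 FPKM). PGK1, a glycolytic enzyme, measured 173 and 189 FPKM in control and 84 and 93.7 FPKM with both (-1.02 ± 0.10, adjusted p = 0.0015), as on knockdown alone (95.1 and 97.7 FPKM).

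Some positions and limits complete the account (GRCh37). The 13 exons of MMP9 span 44637547 to 44645200 of chromosome 20, on the plus strand. ADAMTS1, with 9 exons, is on the minus strand of chromosome 21 from 28208074 to 28217728, and CDH11, with 13, on that of chromosome 16 from 64977656 to 65160015. Whether counting used strand is not stated in the sources used here, so reads cannot be assigned between a gene and an antisense partner. Exons of another gene on the opposite strand overlap ADAM19, ADM2, ALPP, CADM3-AS1, CALML3, CCN2, CDH1, CDH2, COL1A1, COL4A2, DKK1, F2R, FBN2, GINS2, HAS2, ICAM1, IFITM2, IL6, INHBA, IRF1, IRF9, JAG1, KCTD11, KIF20A, KLF4, LOXL2, LTBP2, MANCR, MARCHF4, MMP9, NEURL1B, NID2, PSKH1, PTGS2, RFTN1, SLC7A11, SMURF2, SNAI2, SOX4, TGFB1, TNC, TNFAIP2, TWIST1, UCA1, VIM and XYLT1, whose values are uncertain for that reason. Same-strand overlaps leave AEBP1, CDH11, COL7A1, IFITM2, IRF9, LOXL2, PFKFB4, PGK1 and SULT1E1 uncertain too. Each value in a damaged cell rests on a choice among readings that differ by factors of 10. For the genes named by rule the posterior of the readings behind the net comparison was at least 0.9788, that of CDH11. At the next most likely reading the net change would be -0.56 for KRT15, 1.24 for SOX4, 1.87 for CDH11 and 2.08 for COL1A1.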

How the data were processed

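RNA of 8 libraries was sequenced in 4 groups of 2. The labels name both polyA RNA and a kit that depletes ribosomal RNA, so the RNA fraction is unsure, which bears on genes whose transcripts lack a polyA tail, such as histone genes. Per the submitters' processing notes, the authors used TopHat2 2.0.9, Cufflinks 2.2.1, Cuffdiff and hg19. The deposited values are FPKM for 48175 RefSeq transcripts, of which 47097 matched a symbol. Whether the libraries were scaled to each other is not given in the sources used here, and neither is the strand setting.

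Many deposited FPKM cells had lost their decimal mark (34.1% of cells), leaving up to 3 readings that differ by factors of 10. Readings were restored from the whole reads behind each value, found for 5475 of 5908 genes searched (92.7%, tolerance 0.003 reads) against 1 with random last digits. Where whole reads allowed several readings, the choice also weighed agreement of the libraries of a group and disfavoured large changes. The spread, the p-values and the net changes thus rest partly on these assumptions. Of 12012 genes at 1 FPKM or more in 2 libraries, 5414 with 1 usable transcript and a posterior of at least 0.95 were tested. Cells in exponent form (13.9%) were set to 0. In a simulation of 400 genes, 354 were accepted and 343 were read rightly. Restoration was least reliable for large changes: at 4-fold 34 of 50 genes were accepted, all read rightly, and at 10-fold 23 of 50, of which 11 were wrong. Large changes, including that of KRT15, may therefore be misread or missing.

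Log2(FPKM + 1) values were fitted with limma 3.58.1 (R 4.3.3) in 1 model of the 4 groups with an intensity trend, and p-values were adjusted by Benjamini-Hochberg over all 5414 genes. On simulated net changes in 5399 genes, 25 of 67 changes of 1.5-fold, 60 of 67 of 2-fold and 66 of 66 of 4-fold were recovered, with 4 false calls. The simulation gave every library the same spread and changed only the TGF-β-treated SOX4-shRNA group. The measured libraries differed more with the SOX4 shRNA, so recovery in these data may be lower. Alternatives are given in the closing section.

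Genes were named by rule: SOX4, the up to 12 largest called changes per direction without overlap, up to 8 opposed genes per class with the largest smaller step, up to 4 members per list by p, and a set of known genes. Of that set FN1, ZEB1, SMAD7, SKIL, PMEPA1 and EZH2 have several transcripts and were not fitted. The members and lists were chosen with earlier results of these data known. Deviations of same-numbered libraries from their group means correlated at 0.44 between the untreated groups and at 0.349 between the TGF-β-treated groups. Between an untreated and a treated group the correlations were negative, from -0.59 to -0.205. The numbers were not taken to pair the samples, and the main fit has no replicate term. Whether libraries pair across groups in another order is not given by the labels and was not tested as such. A fit with 1 such order, the crossed replicate block, was chosen after seeing the data. Its counts are given in the closing section. Gene positions are those of GENCODE on GRCh37, and promoters those of RefSeq on GRCh38.p14. One gene counted among those called is not reported here by name.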

Additional observations from a re-analysis of the deposited data

How the results depend on the processing

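No called gene was called in the opposite direction in any alternative run, and no named gene with a call changed sign. Named genes without a call could change sign, such as COL7A1 (-0.29 to 0.33) and MARCHF4 (-0.18 to 0.10). The 314 higher and 245 lower genes ranged from 99 to 357 and from 57 to 285 with 1 library left out. Of the genes that fell on knockdown and rose with TGF-β in SOX4-shRNA cells, 5 to 11 were then below, 2 to 18 near and 5 to 12 above control. Of those that rose with TGF-β and fell on knockdown in its presence, 1 to 16 were below, 0 to 19 near and 0 to 7 above. The mirror genes near control numbered 0 to 5, and the genes that moved the same way 1 to 5.

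In the order first set below, near and above, second set below, near and above, mirror near, same way, other counts moved as follows. All 12012 kept genes gave 7 below in the first set, 9 below and 11 near in the second, 3 mirror and 16 same-way genes. No filter gave 7, 10 and 10 in the first set and 12 mirror genes. A minimum of 5 FPKM gave 9 near in the second set. A bound of 0.8 gave 44 near in the first set and 33 in the second. Only the libraries compared gave 154 lower genes, 4, 6 and 7 in the first set, 9 near and 3 above in the second, 0 mirror and 2 same-way genes. A pseudocount of 0.1 gave 15 and 4 near in the sets and 3 mirror genes, and one of 0.5 gave 8 near in the second set. No intensity trend gave 10 mirror genes, and voom 14 and 6 near in the sets and 10 mirror genes.

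With the replicate block, 198 genes were higher and 131 lower, with 9 near and 6 above in the first set, 7 below, 8 near and 3 above in the second, 3 mirror and 3 same-way genes. The crossed replicate block, chosen after seeing the data, swapped the replicate numbers of both TGF-β-treated groups. It gave 685 and 768, first set 27, 102 and 64, second set 27, 78 and 25, 76 mirror and 49 same-way genes. Of 102 named calls, 49 held in every alternative, and 27 of 67 named genes without a call were called in some alternative, CDH2 only under the crossed block, which also called BAMBI, NOG and KRT5. The median net change moved from -0.041 to -0.012 under median of ratios scaling.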

Other observations

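Lists not described above held few called genes. Of 6 fitted IGF axis genes, IGFBP4, which binds IGF in the extracellular space, was below control (-0.68), and IGFBP2 (0.54) was not called. Of 11 glycolysis and hypoxia genes, EGLN3, a prolyl hydroxylase that marks HIF for destruction, was above (0.95) and PGK1 below. Of 10 cornified envelope genes only SPRR1B was called, and the list's median was -0.00. Of 6 angiogenic factors, FGF2 (0.69) and the ephrin EFNB2 (0.47) were above and FGFBP1 below. Of 5 BMP and ID genes, FSTL1 was above (0.53), while BMP2 (0.43) and ID3 (0.40) were not called. The calls of EGLN3, IGFBP4, FGF2, EFNB2 and FSTL1 were lost when either untreated control library was left out. Those of IGFBP4, FGF2, EFNB2 and FSTL1 were also lost without either TGF-β-treated scrambled library or TGF-β-treated SOX4-shRNA replicate 1.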
